A study of Homo sapiens with 11 samples.

Results

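SUP-T1 is an established human cell line of T-cell acute lymphoblastic leukemia (T-ALL), and its own profile was taken here as the genes that lay at least 2 log2 units above or below all 10 other T-ALL lines of the series. By this rule 25 genes lay above every other line, which is 0.126% of the 19775 genes, and 54 genes lay below, which is 0.273%. The measured values of SUP-T1 chose these 79 genes, so that the size of their differences is a description. Expression was measured with 1 HG U133 Plus 2.0 array per line on RNA extracted with Trizol, and the labels name no treatment. The series groups the lines by activity of NKL homeobox genes, a subclass of developmental transcription factor genes, into 5 NKL-negative lines (SUP-T1, MOLT-4, CML-T1, MOLT-16 and MOLT-14) and 6 NKL-positive lines (PEER, JURKAT, HPB-ALL, ALL-SIL, LOUCY and CCRF-CEM). Values are RMA levels on the log2 scale, in which 1 unit is a doubling of probe signal. The median of the SUP-T1 array was 4.72, and its lower quartile was 3.55.

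Each line is a single leukemic clone with 1 array, so that the line, its culture and its array cannot be told apart, and no error can be given for a level in SUP-T1. An exact permutation of 1 line against 10 cannot give a p below 0.0909, so that no test was made. In place of a test, the lowest, the median and the highest of the 10 other lines are given. In RNA from whole cultures, fewer cells that express a gene and less RNA per cell cannot be told apart. Array medians lay between 4.63 and 4.76. HPB-ALL, CML-T1 and MOLT-16 lacked the signal of the poly-A spike-in controls, bacterial transcripts added before labelling, while SUP-T1 had it with a mean of 6.11.

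NOTCH receptors are cell surface proteins that are cleaved after binding a ligand on a neighbouring cell. The released intracellular domain enters the nucleus, joins the DNA-binding protein RBPJ and activates target genes, among them transcriptional repressors of the HES and HEY families and feedback regulators such as NRARP. The pathway commits progenitors to the T-cell lineage in the thymus and is activated in many T-ALL. SUP-T1 is known for a chromosomal translocation that joins NOTCH1 to the T-cell receptor beta locus. Interferons act through receptors on the cell surface and JAK kinases, which activate STAT proteins that bind interferon-stimulated response elements in antiviral genes.

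The promoters of NOTCH targets and of interferon-stimulated genes are shown because both groups have members in the SUP-T1 profile, and that of POU3F3, which is in neither NOTCH list, because it is a leading gene of the profile with a match. They hold the 250 bases before the annotated start in RefSeq (GRCh38.p14), 5′ to 3′ in the direction of transcription, and the capitals mark matches to TGGGAA, the core of the RBPJ motif, on either strand. HES5 and POU3F3 belong to the genes above every other line, HES4 was highest in SUP-T1 by a smaller gap, and HES1 was not higher in SUP-T1 than in the median of the other lines. PRL, another gene above every other line, holds a match 16 bases before its start and is not shown.
HES5 (chr1:2530264-2530513, minus strand): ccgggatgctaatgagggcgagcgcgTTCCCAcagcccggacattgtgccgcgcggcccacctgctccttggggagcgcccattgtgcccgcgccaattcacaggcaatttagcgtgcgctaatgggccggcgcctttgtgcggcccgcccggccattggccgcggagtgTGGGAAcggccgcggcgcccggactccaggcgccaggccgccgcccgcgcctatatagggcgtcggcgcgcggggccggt
HES4 (chr1:1000098-1000347, minus strand): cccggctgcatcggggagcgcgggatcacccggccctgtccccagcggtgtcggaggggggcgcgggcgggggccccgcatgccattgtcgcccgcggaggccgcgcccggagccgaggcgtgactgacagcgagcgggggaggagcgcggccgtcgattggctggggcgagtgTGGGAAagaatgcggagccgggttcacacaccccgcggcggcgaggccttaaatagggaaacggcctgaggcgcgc
POU3F3 (chr2:104853865-104854114, plus strand): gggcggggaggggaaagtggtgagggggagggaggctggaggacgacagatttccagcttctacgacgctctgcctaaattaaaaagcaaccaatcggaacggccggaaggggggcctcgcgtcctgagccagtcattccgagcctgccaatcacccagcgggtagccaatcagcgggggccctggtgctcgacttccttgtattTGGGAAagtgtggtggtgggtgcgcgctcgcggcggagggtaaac
HES1 (chr3:194135898-194136147, plus strand): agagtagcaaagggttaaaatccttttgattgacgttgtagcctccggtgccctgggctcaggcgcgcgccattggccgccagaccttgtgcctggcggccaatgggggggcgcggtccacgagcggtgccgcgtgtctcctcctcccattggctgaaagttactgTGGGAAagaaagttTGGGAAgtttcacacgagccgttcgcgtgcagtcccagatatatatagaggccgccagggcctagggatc

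The RBPJ core was present in 3 of the 17 promoters of genes above every other line with a sequence, which is 17.6%, and in 3087 of all 15384 promoters, which is 20.1%. Among the NOTCH targets 6 of 20 promoters held it, and 2 of the 7 with a difference of at least 2 log2. HES1 holds 2 matches, 84 and 70 bases before its start, with a level in SUP-T1 within the range of the other lines. A match is only a description of these letters.

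In the following promoters of genes below every other line, the capitals mark the core of the interferon-stimulated response element, which is GAAA repeated after any 2 bases, on either strand. These are the 4 of 42 promoters of such genes with a match, which is 9.52%, against 381 of all 15384 promoters, which is 2.48%.
GBP1 (chr1:89065209-89065458, minus strand): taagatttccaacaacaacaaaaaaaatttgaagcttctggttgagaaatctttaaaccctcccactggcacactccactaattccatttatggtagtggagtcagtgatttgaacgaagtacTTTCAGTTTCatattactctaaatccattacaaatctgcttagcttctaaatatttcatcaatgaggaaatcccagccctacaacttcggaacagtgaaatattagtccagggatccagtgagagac
TRIM5 (chr11:5685075-5685324, minus strand): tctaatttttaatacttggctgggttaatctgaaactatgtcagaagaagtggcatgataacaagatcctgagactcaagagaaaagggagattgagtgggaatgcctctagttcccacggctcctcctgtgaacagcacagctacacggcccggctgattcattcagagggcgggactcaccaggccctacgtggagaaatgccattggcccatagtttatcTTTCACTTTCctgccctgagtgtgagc
IFI44 (chr1:78649539-78649788, plus strand): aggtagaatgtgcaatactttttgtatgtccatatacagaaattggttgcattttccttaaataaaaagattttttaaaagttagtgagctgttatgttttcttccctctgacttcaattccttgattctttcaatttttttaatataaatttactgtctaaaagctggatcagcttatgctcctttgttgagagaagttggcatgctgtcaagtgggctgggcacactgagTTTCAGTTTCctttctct
PARP14 (chr3:122680589-122680838, plus strand): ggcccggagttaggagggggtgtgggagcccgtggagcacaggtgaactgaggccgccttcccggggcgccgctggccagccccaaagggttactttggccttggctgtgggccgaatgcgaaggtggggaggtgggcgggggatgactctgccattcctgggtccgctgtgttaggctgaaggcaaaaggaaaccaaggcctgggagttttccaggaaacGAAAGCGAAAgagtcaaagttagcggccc

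Both markers of the line belonged to the genes above every other line. EN1, an NKL homeobox gene of midbrain development, reached 7.08, while the other lines lay at 2.88, 3.06 and 3.40 (lowest, median and highest). HEY1, a repressor of the HES and HEY family, reached 11.63, while the other lines lay at 3.85, 4.55 and 6.81. The other probe set of HEY1 gave 10.77 in SUP-T1 and at most 5.43 elsewhere. EN1 has 1 probe set. For the probe sets that chose both genes, the lack of overlap with the other lines follows from the rule. Only the other probe set of HEY1 was not part of that choice. EN1 belongs to the NKL subclass, while SUP-T1 is labelled NKL-negative. How that label was set, and whether EN1 counted for it, was not examined.

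Most T-cell markers were high in SUP-T1. Of 9 measured T lineage markers 8 lay above the median of the SUP-T1 array, and CD3D, a chain of the T-cell receptor complex, reached 13.28. CD2, an adhesion molecule of T-cells, was the exception with 4.21, near the lowest of the other lines at 4.13. For B-cells 2 of 5 markers lay above the array median with levels between 2.92 and 5.99, for myeloid cells 1 of 5 between 2.74 and 5.34, for NK-cells 3 of 5 between 3.73 and 5.90 and for erythroid cells 1 of 3 between 3.67 and 5.26. CD14, MS4A1, EBF1 and LYZ lay under the lower quartile of the array.

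All 11 markers of double positive thymocytes, the stage that carries both CD4 and CD8, lay above the array median, with levels between 6.32 and 11.26. RAG1, a subunit of the recombinase of antigen receptor genes, reached 11.26, while the other lines lay at 2.75, 5.97 and 10.27. Its partner RAG2 reached 9.40 against 2.69, 3.96 and 7.62. The highest of the other lines for RAG2 was thus 1.78 log2 lower, within the limit set for the profile. DNTT, which adds bases during receptor rearrangement, was lower in SUP-T1 with 6.32 than in the median of the other lines with 10.03. Of the 19 measured genes in the longer list of this stage, 11 exceeded the median of the other lines by at least 2 log2, and the median difference was 2.08. Over all genes 1.41% lay as far above and the median difference was 0.03. Since up to 11 of these genes lay as far above in other lines too, the count is not particular to SUP-T1.

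The genes above every other line contained regulators of development. POU3F3, a transcription factor of brain and kidney, reached 10.19, while the other lines lay at 2.61, 3.24 and 5.75. PANTR1, a noncoding RNA that is the neighbour of POU3F3 on chromosome 2 with 0 measured genes between them, reached 10.28 against 3.71, 4.11 and 4.58. IRX1, a homeobox gene of the Iroquois family outside the NKL subclass, reached 9.40 against 2.61, 3.02 and 3.43. For IRX1 and PANTR1 all 10 other lines were under the median of the SUP-T1 array, whereas POU3F3 passed it in MOLT-14 with 5.35 and in JURKAT with 5.75. The 2 other probe sets of POU3F3 gave 4.87 in SUP-T1 each, also above all other lines but by less than 1 log2. These genes thus add developmental regulators to EN1, and of the 36 measured NKL homeobox genes EN1 alone belonged to the profile.

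**Figure D1:**
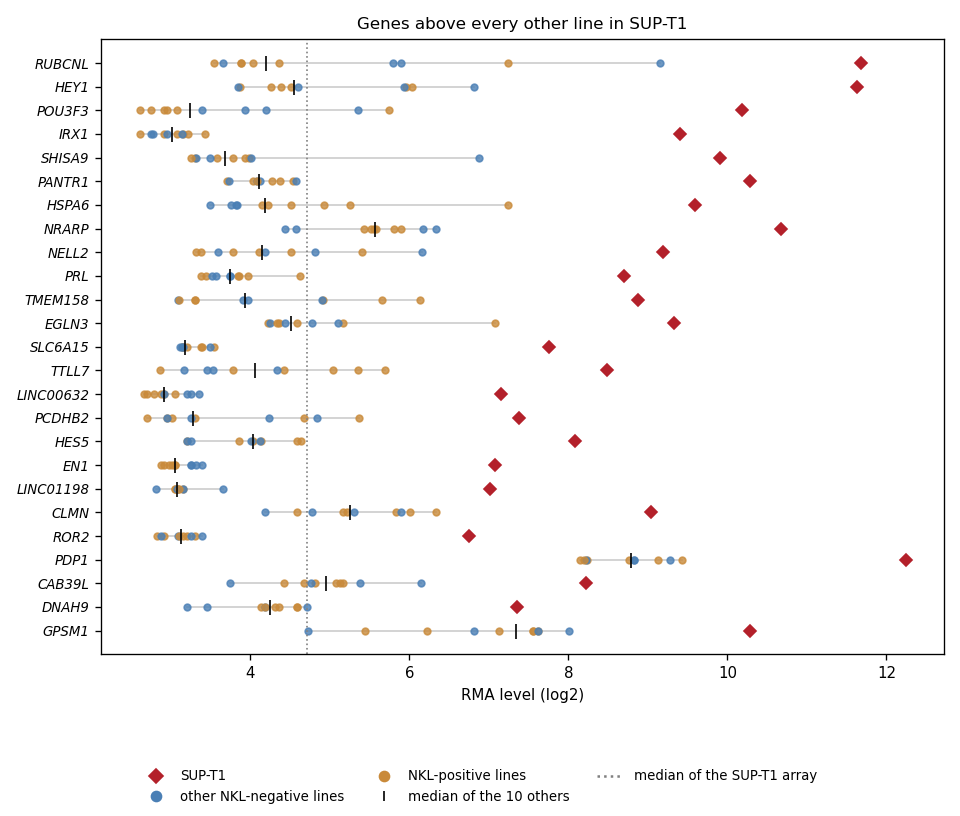
RMA levels (log2, x-axis) of the 25 genes above every other line in SUP-T1 (y-axis, ordered by the difference from the median of the others), with SUP-T1 as red diamonds, the 10 other lines as points, their range as grey lines, their median as black ticks and the median of the SUP-T1 array as a dotted line. IRX1, EN1 and PANTR1 show narrow ranges of the other lines far to the left of SUP-T1, whereas RUBCNL reaches 9.15 in MOLT-16 and PDP1 is high in all lines.

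The gene with the largest difference was RUBCNL, an autophagy regulator. It reached 11.68, while the other lines lay at 3.55, 4.20 and 9.15, so that MOLT-16 also had a high level. The other probe set gave 11.35 in SUP-T1. LINC01198, the neighbour of RUBCNL on chromosome 13 with 0 measured genes between them, reached 7.01 against 2.81, 3.08 and 3.66. Unlike RUBCNL, it was low in MOLT-16, with 3.15. Both neighbouring pairs on chromosomes 2 and 13 thus lay above every other line together. Across the 41 measured genes around POU3F3 the median difference was 0.30 and across those around RUBCNL it was 0.26, against 0.03 for all genes. Around POU3F3 32 of these genes lay above the median of the others and around RUBCNL 30 did, against 52.0% of all genes. Those at least 2 log2 above around RUBCNL numbered 4 of 41, against 1.41% of all genes. RUBCNL, LINC01198 and CAB39L among them belonged to the profile. The remaining gene, LRCH1, lies next to LINC01198 and reached 9.58 against 6.47, 7.47 and 8.84. In the same window LPAR6 and RCBTB2 lay the other way, with differences of −5.04 and −2.40, within the range of the other lines. Around EN1 the median difference was 0.17, with 25 of 41 genes above the median of the others. Those at least 2 log2 above numbered 4, EN1 included, against 1.41% of all genes. Each of these windows was centred on a gene that the rule had chosen, which fixed part of its count.

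Further genes above every other line included SHISA9, NELL2, PRL and TMEM158. SHISA9, an auxiliary subunit of glutamate receptors, reached 9.91 against 3.25, 3.68 and 6.88. NELL2, a secreted glycoprotein of neurons, reached 9.19 against 3.32, 4.15 and 6.16. PRL, the hormone prolactin, reached 8.70 against 3.38, 3.74 and 4.63. The other lines were below 5 for PRL, while CML-T1 reached 6.88 for SHISA9. TMEM158, a membrane protein, reached 8.88 against 3.09, 3.94 and 6.13. These levels were in the upper quartile of the SUP-T1 array, which began at 6.9.

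Among stress genes, HSPA6, an inducible chaperone of the HSP70 family, reached 9.59, while the other lines lay at 3.50, 4.19 and 7.24. EGLN3, an oxygen-dependent hydroxylase acting on hypoxia-inducible factors, reached 9.33 against 4.22, 4.51 and 7.08. Lists of stress and hypoxia genes were compiled after these values were seen. Of 21 measured stress and heat shock genes 3 lay at least 2 log2 above the median of the others (14.3%, against 1.41% of all genes), with DNAJB4, a co-chaperone, at 8.57 against a median of 6.38, and BAG3, another co-chaperone, lay the other way with 5.38 against 8.05. Of 23 hypoxia genes 4 lay that far above (17.4%), as did 9 in CCRF-CEM and 4 in HPB-ALL, and ADM, a vasoactive peptide, reached 9.78 against 3.82, 5.41 and 8.25. BNIP3, a mitochondrial protein of the same response, lay at 2.83 against a median of 9.35. The lists were therefore not uniform in direction, and their median differences were 0.47 and 0.40. Neither BAG3 nor BNIP3 belonged to the profile, so that for each the lowest other line lay less than 2 log2 above SUP-T1 or below it.

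The members nearest to the limit of 2 log2 on the upper side were PCDHB2 (gap 2.01) and CAB39L (2.07), and just outside were DPY19L2 (1.97) and CTCFL (1.96). Several probe sets were present for 13 of the 25 genes, and in 12 of these every probe set exceeded the median of the other lines. The exception was GPSM1, an adaptor of G-protein signalling, with 10.29 against 7.34 by 1 of 2 probe sets. When every probe set had to pass the gap, 17 of the 25 genes were left. The count of 25 depends on the lines compared, with 40 genes without HPB-ALL and 59 where only lines with poly-A controls are compared. The same 25 genes were contained in both.

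NOTCH1 reached 11.13 in SUP-T1, the highest level of the 11 lines, while the other lines lay at 6.60, 8.74 and 10.42. Its other probe set gave 7.14 against 3.58, 5.07 and 6.84. The gap to the highest other line, ALL-SIL, was 0.71 and 0.30, so that NOTCH1 was highest in SUP-T1 by both probe sets but not far from the range of the others. Where the probe sets lie relative to the breakpoint was not examined. Of the 26 measured receptors, ligands and processing genes 2 lay at least 2 log2 above the median of the others (7.69%, against 1.41% of all genes), namely NOTCH1 and the receptor gene NOTCH3, which is itself a target. HPB-ALL also had 2 such genes. The 2 genes that lay as far below were MAML3, a coactivator of the pathway, and MFNG, a glycosyltransferase that modifies NOTCH receptors, with 5.34 against 4.05, 8.85 and 9.92. The median difference of this list was −0.18.

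The targets showed higher levels in a larger share. NRARP, a feedback inhibitor of the pathway, reached 10.68, while the other lines lay at 4.44, 5.57 and 6.34. HES5, a repressor of the HES family, reached 8.08 against 3.20, 4.03 and 4.64. HEY1, NRARP and HES5 were the targets among the genes above every other line. The other lines did not pass 6.81 for any of these 3 genes.

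HES4, another HES repressor, reached 10.51, while the other lines lay at 3.40, 7.46 and 9.91. NOTCH3 reached 9.76 against 3.20, 6.66 and 9.12. PTCRA, the pre-T-cell receptor alpha chain, reached 9.91 against 5.25, 6.78 and 8.56 and was highest in SUP-T1 by all of its 3 probe sets. These 3 genes were highest in SUP-T1, with MOLT-14 or HPB-ALL closest. DTX1, a NOTCH-binding ubiquitin ligase, reached 9.64 and was exceeded in ALL-SIL (10.36) and MOLT-14 (10.61). IL7R, the interleukin-7 receptor, reached 9.13 and was exceeded in HPB-ALL with 10.98. CR2, a complement receptor, reached 8.53 and overlapped with the other lines, which extended to 11.51.

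Other targets did not differ in this direction. MYC, a driver of growth in T-ALL, lay at 11.23 in SUP-T1, while the other lines lay at 3.38, 11.59 and 12.82. HES1 lay at 8.09, under the median of 8.40 and above HPB-ALL, MOLT-4, LOUCY, JURKAT and MOLT-16. Its 3 probe sets did not share a direction. ID3, an inhibitor of E proteins, was below every other line with 3.91 against 6.95, 8.60 and 10.31. The family of HES and HEY genes was thus split, since HEY1, HES4 and HES5 were highest in SUP-T1 while HES1, HES6, HEY2 and HEYL lay within the range of the others.

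Altogether 9 of 24 measured targets (37.5%) exceeded the median of the other lines by at least 2 log2, against 1.41% of all genes, and 9 were highest in SUP-T1, against 9.54% of all genes. The median difference was 0.69. The same counts in the other 10 lines reached at most 5 and 3 genes. The median difference was, however, 0.74 in MOLT-14, so that SUP-T1 differed from that line by a subset of the targets. Outside the profile 6 of the remaining 20 targets were highest in SUP-T1. The list was assembled from textbook targets with earlier results of these data known.

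**Figure D2:**
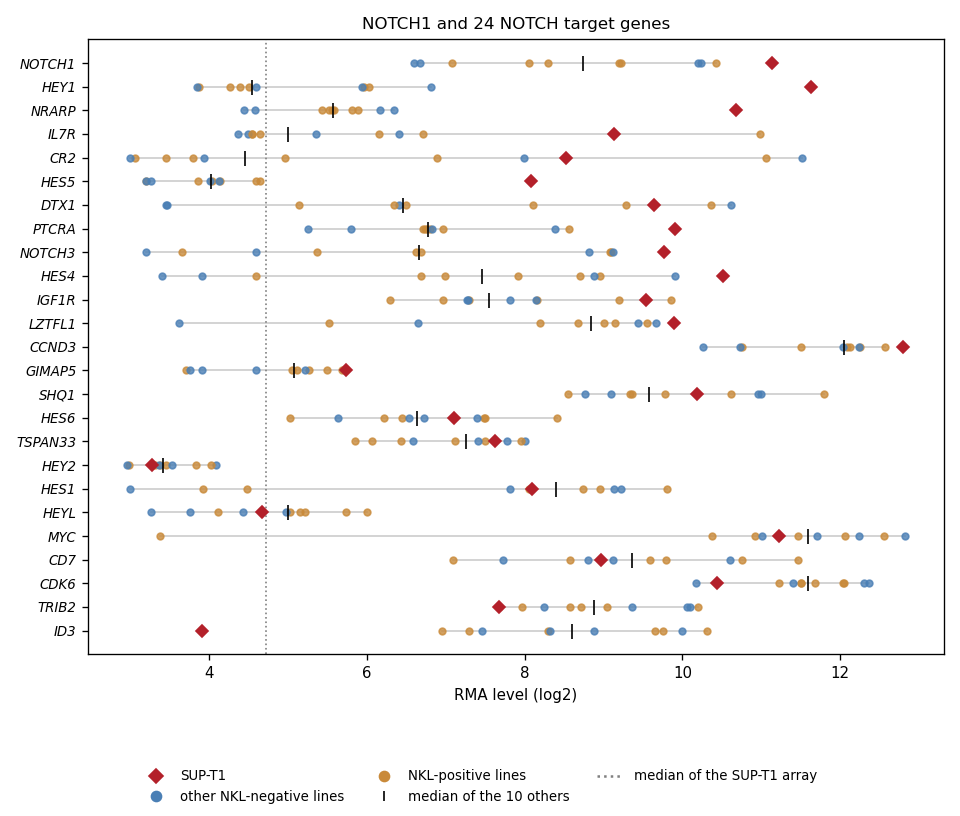
RMA levels (log2, x-axis) of NOTCH1 and of 24 NOTCH target genes (y-axis, ordered by the difference of SUP-T1 from the median of the others), with SUP-T1 as red diamonds, the 10 other lines as points, their range as grey lines, their median as black ticks and the median of the SUP-T1 array as a dotted line. HEY1, NRARP and HES5 stand apart from all other lines, DTX1, IL7R and CR2 are exceeded elsewhere, and ID3 lies below every other line.

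On chromosome 9, GPSM1 lies 8 measured genes from NOTCH1. Of the 41 measured genes around NOTCH1 with NOTCH1 as their centre, 25 had a higher level than the median of the other lines (52.0% of all genes had). NOTCH1 and GPSM1 were the 2 that lay at least 2 log2 above, against 1.41% of all genes. The median difference was 0.04. The region as a whole was therefore close to the median of all genes, 0.03. On chromosome 19 lay 9 of the 54 genes below every other line, which is 16.7%, while the chromosome holds 6.69% of the genes. Further neighbours among the lower genes were DTX3L and PARP14 on chromosome 3 and TRIM22 and TRIM5 on chromosome 11, with 1 measured gene between each, and CMPK2 and RNF144A on chromosome 2, with 2 between them. IFI44 (lower) and TTLL7 (higher) lie near each other on chromosome 1 with opposite directions.

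The genes below every other line were led by BCAT1, the cytosolic branched-chain aminotransferase. It lay at 2.92 in SUP-T1, while the other lines lay at 9.66, 10.72 and 12.16. All 4 probe sets were lowest in SUP-T1. ICAM3, an adhesion molecule of leukocytes, lay at 3.17 against 7.50, 10.37 and 11.26. PRKCH, a protein kinase C, lay at 3.73 against 8.64, 10.51 and 11.44, and 1 of its 3 probe sets, at 4.54 in SUP-T1 and at most 4.07 elsewhere, pointed the other way. BCAT1, ICAM3 and PRKCH were thus high in all 10 other lines and near or below the lower quartile of the array in SUP-T1.

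TPM4, an actin-binding tropomyosin, lay at 2.92, while the other lines lay at 7.41, 9.61 and 10.85, with 1 of 5 probe sets inside the range of the others. ZDHHC2, a palmitoyltransferase, lay at 2.88 against 8.04, 9.13 and 10.11. RFLNB, a filamin-binding protein, lay at 3.17 against 6.48, 9.12 and 10.74. C16orf54 lay at 2.64 against 5.73, 8.18 and 10.16. None of these 4 genes passed the lower quartile of the SUP-T1 array in this line. In all, 24 of the 54 genes were under that quartile in SUP-T1 and 40 under its array median. Levels near the background of the array have no order, so that for the genes under that quartile the differences may be lower bounds. This was not tested.

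**Figure D3:**
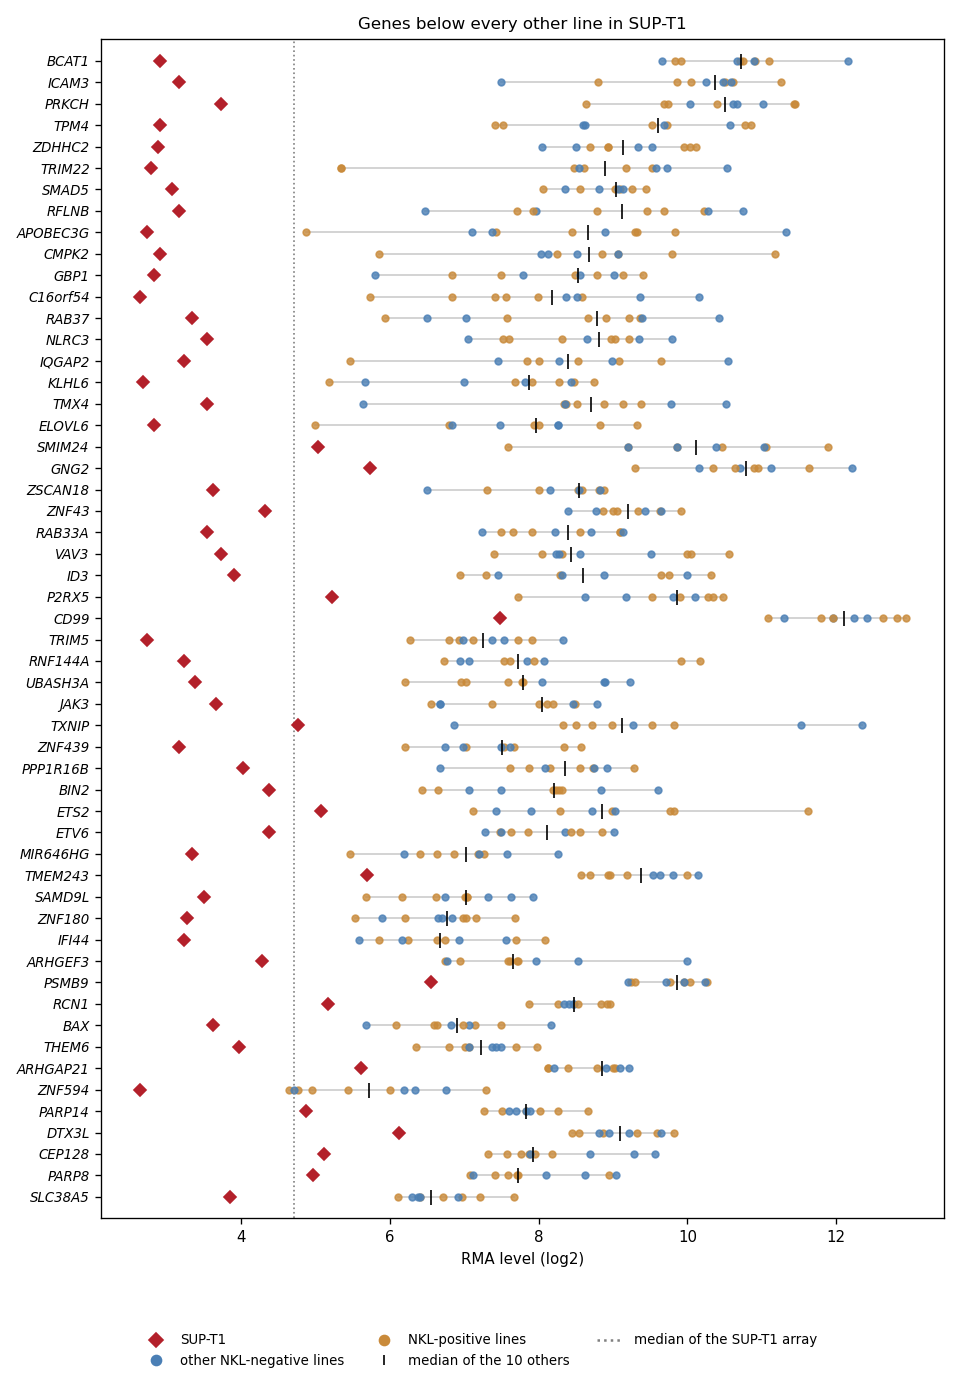
RMA levels (log2, x-axis) of the 54 genes below every other line in SUP-T1 (y-axis, ordered by the difference from the median of the others), with SUP-T1 as red diamonds, the 10 other lines as points, their range as grey lines, their median as black ticks and the median of the SUP-T1 array as a dotted line. BCAT1, SMAD5 and ZDHHC2 are high in all 10 other lines, whereas APOBEC3G and TRIM22 show wide ranges among them.

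Genes of BMP and T-cell receptor signalling occurred among them. SMAD5, a transducer of BMP receptors, lay at 3.08, while the other lines lay at 8.06, 9.04 and 9.44, and all 5 probe sets were lowest in SUP-T1. SMAD1, the related transducer, lay at 3.79 against 3.82, 8.09 and 8.89, so that a further line was as low. In the list of BMP and TGF-beta signalling 7 of the 31 measured genes were lowest in SUP-T1 (22.6%), against 8.1% of all genes, and the median difference was −0.12. In other lines this count of lowest genes reached 7 as well, so that it is not particular to SUP-T1. At least 2 log2 below the median of the others were 6 genes (19.4%), against 2.44% of all genes. Of these 6 genes 2 belonged to the profile, and other lines had at most 3 that far below. As far above were 3 genes (9.68%, against 1.41% of all genes), and other lines had up to 4. VAV3, an exchange factor downstream of the T-cell receptor, lay at 3.73 against 7.40, 8.44 and 10.56, and UBASH3A, a phosphatase family member that restrains this receptor, lay at 3.39 against 6.21, 7.79 and 9.23. PAG1, an adaptor that restrains LCK, lay at 3.12 against 4.54, 8.52 and 10.65, by a gap below 2 log2. Of 43 genes of T-cell receptor signalling 8 were lowest in SUP-T1 (18.6%), with a median difference of −0.60, and in the other lines at most 6 were. With the mean over the probe sets of a gene the median difference was −0.34.

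The genes below every other line also included ETV6 and BAX. ETV6, an ETS family repressor that is mutated in T-ALL, lay at 4.38, while the other lines lay at 7.28, 8.11 and 9.01. Of its 5 probe sets 3 were lowest in SUP-T1. BAX, a mediator of mitochondrial apoptosis, lay at 3.62 against 5.68, 6.90 and 8.17, and both probe sets were lowest in SUP-T1. It was the 1 gene of the profile among 21 measured apoptosis promoting genes, of which 2 were lowest in SUP-T1 (9.52%), near the 8.1% of all genes. Outside the profile, among E proteins and their inhibitors, TCF4 lay at 3.28 against 3.34, 7.53 and 9.17, with SUP-T1 and ALL-SIL both under the lower quartile, while ID1 lay at 9.22 near the highest of the others at 9.25. The inhibitors ID1 and ID3 thus lay near opposite ends of the 11 lines.

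Of 18 measured markers of early progenitors 15 lay below the median of the others, as did 47.4% of all genes, and 6 by at least 2 log2 (33.3%), against 2.44% of all genes. CML-T1 and JURKAT had 6 such genes as well and ALL-SIL had 5, so that the count is not particular to SUP-T1. LGALS1, a galectin, lay at 3.67, while the other lines lay at 3.82, 8.88 and 13.16. IGLL1, a surrogate light chain, lay at 3.55 against 4.84, 8.45 and 13.17. CD44, a hyaluronan receptor, lay at 3.34 against 3.55, 8.15 and 11.37. At least 1 other line was nearly as low for CD44 and LGALS1, and for all 3 genes other lines reached high levels. LMO2, a T-ALL oncogene, lay at 3.12 against 2.96, 7.42 and 9.93, and HHEX, an NKL gene of progenitors, lay at 2.97 against 2.92, 5.45 and 10.89. For both genes SUP-T1 and the lowest other line lay under the lower quartile of the SUP-T1 array, 3.55, where levels have no order.

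Genes stimulated by interferon formed, of all lists examined, the largest group among the genes below every other line, with 10 of the 54 (18.5%), while the list makes up 0.344% of all genes. This list was compiled after the values of its genes were seen, so that its counts are a description only. TRIM22, an antiviral ubiquitin ligase, lay at 2.79, while the other lines lay at 5.34, 8.89 and 10.53. APOBEC3G, an antiviral cytidine deaminase, lay at 2.74 against 4.87, 8.67 and 11.32. CMPK2, a mitochondrial nucleotide kinase, lay at 2.92 against 5.85, 8.68 and 11.18. The lowest of the other lines was JURKAT for TRIM22 and APOBEC3G and HPB-ALL for CMPK2, each more than 2 log2 above SUP-T1.

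GBP1, an interferon-induced GTPase, lay at 2.83, while the other lines lay at 5.80, 8.53 and 9.40, and all 4 probe sets were lower in SUP-T1 than in the median of the others. TRIM5, which restricts retroviral capsids, lay at 2.74 against 6.27, 7.25 and 8.33. SAMD9L, an antiviral factor, lay at 3.50 against 5.68, 7.03 and 7.93, and IFI44 at 3.23 against 5.59, 6.68 and 8.08. PARP14 and its partner DTX3L lay at 4.87 and 6.13, with the lowest other lines at 7.27 and 8.45. PSMB9, a subunit of the immunoproteasome, lay at 6.55 against 9.20, 9.86 and 10.26. Among these genes PSMB9, DTX3L and PARP14 were still above the array median of 4.72, with PARP14 closest to it. Their differences were −3.31, −2.96 and −2.96. Whether the lower end of the array limits these differences was not tested.

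Across the list, 63 of 68 measured genes were below the median of the other lines, whereas 47.4% of all genes were. At least 2 log2 below were 30 genes (44.1%), against 2.44% of all genes, and 36 were lowest in SUP-T1 (52.9%), against 8.1%. The median difference was −1.61. In the other lines at most 6 of these genes lay as far below and at most 11 were lowest, the latter in LOUCY. Without the 10 members of the profile, 26 of 58 were lowest and the median difference was −1.14. These 58 genes were also listed with their values seen, so that this count is a description too. The median level of the list was 5.25 in SUP-T1 and between 7.06 and 8.21 in the other lines. IFITM1, IFITM2 and IFITM3, related membrane proteins that block viral entry and whose probe sets may share signal, lay at 7.20, 5.59 and 6.49 against medians of 12.29, 11.15 and 10.15. None of them belonged to the profile, so that for each the lowest other line lay less than 2 log2 above SUP-T1 or below it. IRF9, IFI16, CNP, OASL and IFI27 were the 5 genes that were not below the median.

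The genes upstream, compiled in the same way, were closer to the other lines. Of 17 measured receptors, signal transducers and sensors of this pathway 1 lay at least 2 log2 below the median of the others (5.88%, against 2.44% of all genes), as in CML-T1, MOLT-4, MOLT-16 and JURKAT. In SUP-T1 this was IFIH1, a sensor of viral RNA that is itself interferon-stimulated, with 3.44 against 4.76, 5.96 and 7.04. The receptor genes IFNAR1 and IFNAR2 lay at 7.36 and 8.61 against medians of 7.31 and 8.89. The kinase gene JAK1 lay at 10.64 against 8.35, 9.55 and 11.09, and IRF9 at 7.22 against 6.20, 6.92 and 8.21. The median difference was −0.18. STING1, an adaptor of DNA sensing, lay at 6.62 against 5.40, 8.10 and 8.86, and CGAS, the DNA sensor, at 3.67 against 3.65, 5.13 and 6.97.

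**Figure D4:**
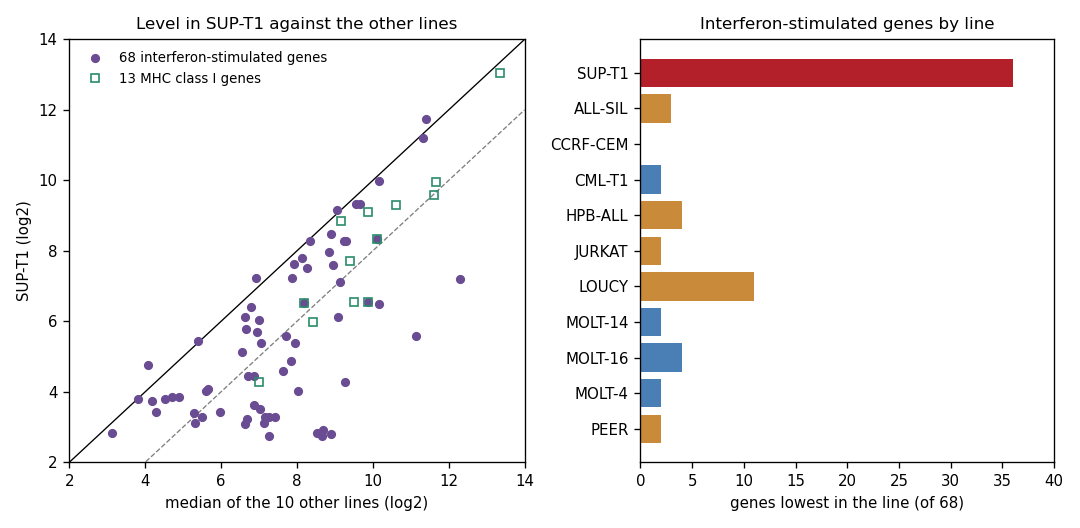
Left, RMA level in SUP-T1 (log2, y-axis) against the median of the 10 other lines (log2, x-axis) for 68 interferon-stimulated genes (points) and 13 MHC class I genes (squares), with equality as a solid line and a difference of 2 log2 as a dashed line. Right, number of the 68 genes that were lowest in each of the 11 lines (SUP-T1 in red, other NKL-negative lines in blue, NKL-positive lines in ochre), with 36 in SUP-T1 and at most 11 elsewhere.

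The response element core was found in 28 of 55 promoters of the list (50.9%) and in 17 of the 26 promoters (65.4%) of its genes that lay at least 2 log2 below the median. In all promoters the share was 2.48%. The sequences of GBP1, TRIM5, IFI44 and PARP14 printed above carry 1 match each, at 127, 27, 18 and 29 bases before the start. CMPK2 held no match in this window. Since such elements are one mark by which these genes are known, the share describes the list.

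Genes of MHC class I antigen presentation were low as a group. All 13 measured genes were below the median of the other lines, and 9 were lowest in SUP-T1 (69.2%), against 8.1% of all genes. The median difference was −1.73, while it lay between −0.74 and 1.24 in the other lines. ERAP1, a peptide-trimming protease, lay at 6.55, while the other lines lay at 7.96, 9.51 and 10.89. NLRC5, the transactivator of these genes, lay at 4.28, while the other lines lay between 5.86 and 8.38. HLA-C, a heavy chain whose probes may share signal with related genes, lay at 9.58 against 10.28, 11.60 and 12.82. B2M, the shared light chain, lay at 13.06 against 12.78, 13.35 and 13.53, so that it did not leave the range of the others. The interferon list shares 3 genes with this list. MHC class II genes had a median difference of −0.03.

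The members nearest to the limit on the lower side were ZNF594, with a gap of exactly 2 log2, and BIN2 (−2.05), and just outside were PARP12 and USP38 (−1.99 each). For 32 of the 54 genes several probe sets were present, and in 26 of these every probe set lay below the median of the other lines. When every probe set had to pass the gap 24 genes were left, and with the mean over probe sets 35 genes passed.

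Set against the other lines, SUP-T1 was rank 5 of 11 by the number of genes above every other line, which extended from 2 in ALL-SIL (0.0101% of the genes) to 93 in CML-T1 (0.47%). By the number of genes below every other line it was rank 2, after ALL-SIL with 60 (0.303%), while CCRF-CEM had 4 (0.0202%). Against the median of the other lines, 279 genes lay at least 2 log2 above and 482 below in SUP-T1. On the 16384 most variable probe sets, its smallest Euclidean distance was 183.2 to JURKAT, which is NKL-positive, followed by 192 to MOLT-4, and its largest was 245.7 to MOLT-16. All pairs of lines ranged between 152 and 246 with a median of 210. The distances of SUP-T1 thus lay on both sides of this median, with that to MOLT-16, also NKL-negative, at the upper end of the range. Its closest line was NKL-positive. Where only lines with poly-A controls are compared, it had 59 genes above, fewer than the 112 of LOUCY, and 81 below, the most of these lines, while ALL-SIL had 77. The part of array differences in these counts was not tested.

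**Figure D5:**
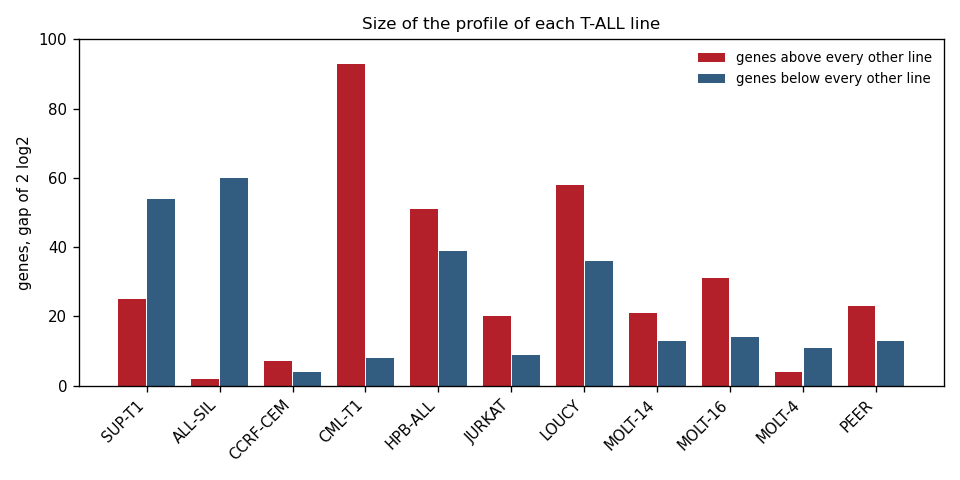
Number of the 19775 genes (y-axis) that lay at least 2 log2 above (red) or below (blue) all other lines, for each of the 11 T-ALL lines (x-axis). SUP-T1 has 25 genes above and 54 below, CML-T1 has the most genes above with 93, and ALL-SIL the most below with 60.

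Several lists for other cell types and states were close to the median of all genes. The median difference was 0.04 for myeloid markers, −0.17 for B-cell markers, −0.14 for NK-cell markers, 0.24 for erythroid and megakaryocyte markers, 0.09 for HOX cluster genes, 0.24 for cell cycle genes and 0.05 for ribosomal proteins. It was −0.55 for mature T-cell markers and 0.55 for TLE corepressors. Of the 15 mature T-cell markers 4 lay at least 2 log2 below (26.7%, against 2.44% of all genes) and 1 as far above. JURKAT had 5 such genes below and MOLT-4 had 4. Of the 13 NK-cell markers 2 lay as far below (15.4%), and other lines had up to 3. Of the 14 B-cell markers 2 lay at least 2 log2 above the median of the others (14.3%, against 1.41% of all genes), namely POU2AF1 and CR2. POU2AF1, a transcriptional coactivator of B-cells, was highest in SUP-T1 with 11.07, while the other lines lay at 4.36, 7.13 and 9.14. NKG7, a granule protein of NK-cells, lay at 5.30 against 3.60, 8.23 and 11.41. CCND2, a D-type cyclin, lay in SUP-T1 at 2.92 against 3.14, 5.58 and 11.85, while CCND3, the related cyclin and a NOTCH target, was highest with 12.79 against 10.26, 12.05 and 12.57. TNFSF10, the ligand TRAIL, lay at 3.28 against 2.92, 7.93 and 11.13, and its receptor gene TNFRSF10B at 7.92 against 2.83, 4.83 and 9.39, so that ligand and receptor lay on different sides of the median.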

How the data were processed

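Gene expression of 11 T-ALL cell lines was measured with 1 HG U133 Plus 2.0 array each. The authors deposited log2 values that were made by RMA, which corrects background, equalizes the distributions of the arrays and summarizes each probe set. The submitters' processing notes name RMA, affy and limma, and their versions are not given in the sources used here. The methods mention ratios to a sample mean, while the deposited log2 values, from 2.24 to 14.57 with 2 decimals, are levels and were used without further scaling. The number of arrays limits the precision.

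After removal of 62 control probe sets, 54613 were analysed with Python 3.11.15, pandas 2.3.3, numpy 2.4.6 and matplotlib 3.10.9. Of these, 41091 had 1 gene symbol, 1801 several and 11721 none. For each gene the probe set whose mean over all lines was highest was used. Groups came from the labels. The named genes were the 12 with the largest difference in each direction, EN1, HEY1, NOTCH1, HES4, HES1, DTX1, NOTCH3, MYC, NRARP and PTCRA, the members next to the limit, list members of the profile, the 3 members of each list with the largest difference, and neighbours in the RefSeq order. Other genes were chosen after their values were seen. The members and the 28 lists, with 487 different genes, were chosen with earlier results of these data known, and 4 lists (interferon-stimulated genes, interferon receptors with transducers and sensors, stress, hypoxia) were added after the values were seen. No gene of the Y chromosome or of X inactivation was in the profile. Promoters were taken from RefSeq (GRCh38.p14), with a sequence for 59 of 79 profile genes. The code of the selection was run on simulated data with genes planted beyond the limit. This checks the code only and not the profile. Alternatives were gaps of 1 and 3 log2, the mean or every probe set of a gene, median centring, quantile normalization, a floor at the 25th percentile, genes with a highest value above the median, the lines with poly-A controls, the 4 other NKL-negative lines and each other line left out.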

Additional observations from a re-analysis of the deposited data

Results flagged for a closer look

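Among 86 profile and NOTCH pathway genes examined, 7 had 1 line that stood apart within the other 10 lines, by a gap to its neighbour beyond the critical value of Dixon's test, and chance flags about 1 in 20 such groups. HPB-ALL was apart for EGLN3 with 7.08 and for PRL with 4.63, JURKAT for HSPA6 with 7.24, MOLT-14 for LINC01198 with 3.66 and CML-T1 for SHISA9 with 6.88, each as the highest of the 10. For PRL and LINC01198 these levels were low, under the SUP-T1 array median of 4.72, and the next lines lay at 3.97 and 3.16. MOLT-4 was apart as the lowest for TMX4 with 5.64, and LOUCY for MYC with 3.38, where the next line reached 10.37.

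Probe sets without a single gene symbol were not used for the profile of SUP-T1. Of the 11721 with no symbol, 10 lay above and 11 below every other line by at least 2 log2, while the other lines had 2 to 49 above and 0 to 6 below. Of the 1801 with several symbols, 1 lay above and 4 below in SUP-T1, while the other lines had 0 to 8 above and 0 to 6 below.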

How the results depend on the processing

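The numbers of genes above and below every other line depended on the gap, with 99 and 171 at 1 log2 and 14 and 18 at 3 log2, and against the median of the others 1180 above and 1448 below at 1 log2 and 135 and 234 at 3 log2. With the mean over probe sets 35 genes lay below every other line. When every probe set of a gene had to meet the rule, 24 lay below every other line, and 139 lay above and 233 below the median of the others. Among the lines with poly-A controls 59 genes lay above, and among the NKL-negative lines 78 above and 153 below. With each other line left out in turn, 26 to 40 genes lay above (40 without HPB-ALL) and 57 to 65 below every other line, which has to add genes, and 265 to 298 above and 476 to 532 below the median of the others. Median centring kept 23 of the 25 genes above and 53 of the 54 below, quantile normalization 25 and 52, and the floor 25 and 47. With the mean over probe sets the median difference was −0.34 for T-cell receptor signalling and −0.19 for E proteins and ID inhibitors, and the other 510 of 512 medians of 32 lists moved by less than the spread over the other lines. Of 4080 differences of 255 genes 72 moved by more than that spread, and 0 of those at or past 2 log2 changed sign. In counts added after the data were seen, 34 to 49 of the interferon-stimulated genes were lowest in SUP-T1 and 8 to 10 NOTCH targets lay at least 2 log2 above the median over the same alternatives. No paired analysis was possible because a line belongs to only 1 group.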
